A study of Homo sapiens with 4 samples.

Results

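Small nucleolar RNA (snoRNA) host genes were examined in MKN45, an established line of human stomach adenocarcinoma cells, with and without lipopolysaccharide (LPS) of the bacterium Helicobacter pylori, a component of its outer membrane. The LPS cells were cultured for 8 h with 10 µg/ml H. pylori LPS (2 arrays), and the untreated cells for 8 h in fresh medium (2 arrays). Both groups were the same line, so neither holds the other cell types of the stomach. RNA was measured on Affymetrix arrays, on which each transcript is read by 1 or more probe sets. The series text speaks of 2 independent experiments, and p-values measure the spread between these arrays only.

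The list held 10 host genes: GAS5, SNHG1, SNHG3, SNHG5, SNHG6, SNHG7, SNHG8, SNHG12, ZFAS1 and EPB41L4A-AS1. A probe set was taken where the platform annotation assigned it to 1 of these symbols alone. This gave 7 of the 54613 probe sets without controls, and they covered 3 of the 10 genes, of 19775 symbols with a probe set of their own. EPB41L4A-AS1 had 2 probe sets, ZFAS1 had 4 and GAS5 had 1. For the other 7 genes, and for 4 further GAS5 probe sets, the annotation lists the host symbol together with the snoRNAs of its introns. Those 14 joint probe sets belong to no single symbol and are described apart.

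snoRNAs are short nuclear RNAs that guide chemical modification of ribosomal RNA. Box C/D snoRNAs direct 2′-O-methylation and box H/ACA snoRNAs direct conversion of uridine to pseudouridine. In humans nearly all are cut from introns of host transcripts, and a class of hosts encodes no conserved protein. The spliced exons of several such hosts are bound by ribosomes and then removed by nonsense-mediated decay, so that they build up when translation stops, and their transcripts often begin with a pyrimidine tract, as those of ribosomal protein genes do. By RefSeq annotation all 10 listed genes are long non-coding RNAs. EPB41L4A-AS1 encloses 1 snoRNA gene (SNORA13, of the H/ACA class), ZFAS1 encloses 3 (SNORD12, SNORD12B and SNORD12C, of the C/D class) and GAS5 encloses 11.

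The windows around the RefSeq starts of EPB41L4A-AS1 and ZFAS1 are shown because these genes, read by several probe sets each, gave different values. Each runs from 250 bases before to 50 bases after the annotated start (GRCh38.p14, RefSeq, plus strand, 5′ to 3′), at chr5:112160276-112160575 and chr20:49278392-49278691. Capitals mark the TATA-box letters TATATAA, read on both strands with overlaps, and the longest run of C and T that begins with C within 10 bases of the start.
EPB41L4A-AS1: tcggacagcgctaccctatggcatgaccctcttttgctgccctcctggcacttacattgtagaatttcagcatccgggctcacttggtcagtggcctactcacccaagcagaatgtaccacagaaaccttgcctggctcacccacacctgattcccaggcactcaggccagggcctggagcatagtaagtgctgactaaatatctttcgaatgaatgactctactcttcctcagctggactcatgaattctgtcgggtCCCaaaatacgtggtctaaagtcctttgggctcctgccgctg
ZFAS1: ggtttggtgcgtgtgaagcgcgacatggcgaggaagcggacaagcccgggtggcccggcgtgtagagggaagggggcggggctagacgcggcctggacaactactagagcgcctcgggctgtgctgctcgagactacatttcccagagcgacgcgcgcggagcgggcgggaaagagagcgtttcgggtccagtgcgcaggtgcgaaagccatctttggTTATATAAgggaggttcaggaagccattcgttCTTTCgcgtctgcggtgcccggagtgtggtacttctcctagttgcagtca
In ZFAS1 the pyrimidine run had 5 bases and began at the annotated start itself. In EPB41L4A-AS1 it had 3 bases and began 8 bases after the start. A run of at least 5 bases, begun anywhere within 10 bases of the start, was present in 33.5% of 35116 such windows. One of at least 3 was present in 72.8%. By length neither is rare, and the share of windows with a run that begins at the start itself was not counted. TATATAA was present in 2.57% of all windows, in ZFAS1 and also in SNHG5 and SNHG12, and TATAAA in 11.5%, SNHG1 and SNHG7 among them. Neither of the printed windows held the E-box CACGTG (7.26% of windows), the cyclic AMP element TGACGTCA (1.85%), the NF-kB consensus (11.3%) or a glucocorticoid response element (0.179%), each searched on both strands.

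EPB41L4A-AS1 lay lower on the LPS arrays on both of its probe sets, but neither passed the test over all probe sets. EPB41L4A-AS1 is also named TIGA1. Values are log2 levels, so that 1 unit is a doubling. On probe set 225698_at the level was 11.10 and 11.06 on the LPS arrays, against 11.54 and 11.52 on the untreated arrays. The averages were 11.08 ± 0.031 with LPS and 11.53 ± 0.0169 untreated (SD, n = 2 each). On probe set 228259_s_at the level was 7.67 and 7.65 on the LPS arrays, against 8.17 and 8.20 on the untreated arrays, averaging 7.66 ± 0.0129 with LPS and 8.18 ± 0.0203 untreated (SD, n = 2 each). The groups did not overlap on either probe set, with gaps of 0.42 and 0.50 between the nearest arrays, while arrays of 1 group lay close together.

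The difference, LPS minus untreated, was -0.45 (95% interval -0.58 to -0.32) for 225698_at, which puts the LPS level at 73.1% of the untreated level. For 228259_s_at it was -0.53 (interval -0.70 to -0.35), an LPS level of 69.4% of the untreated level. The size was alike in both numbered pairs of arrays, at -0.44 and -0.46 on the first probe set and -0.50 and -0.55 on the second. The limma adjusted p was 0.157 and 0.164 over the 38229 probe sets tested, in which the smallest adjusted p of any lower probe set was 0.0621. By unadjusted p the probe sets ranked 18 and 40, and 11 and 32 lower probe sets had a smaller p. The second probe set ends in _s_at, a type that can bind transcripts of more than 1 gene, and the first does not.

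**Figure D1:**
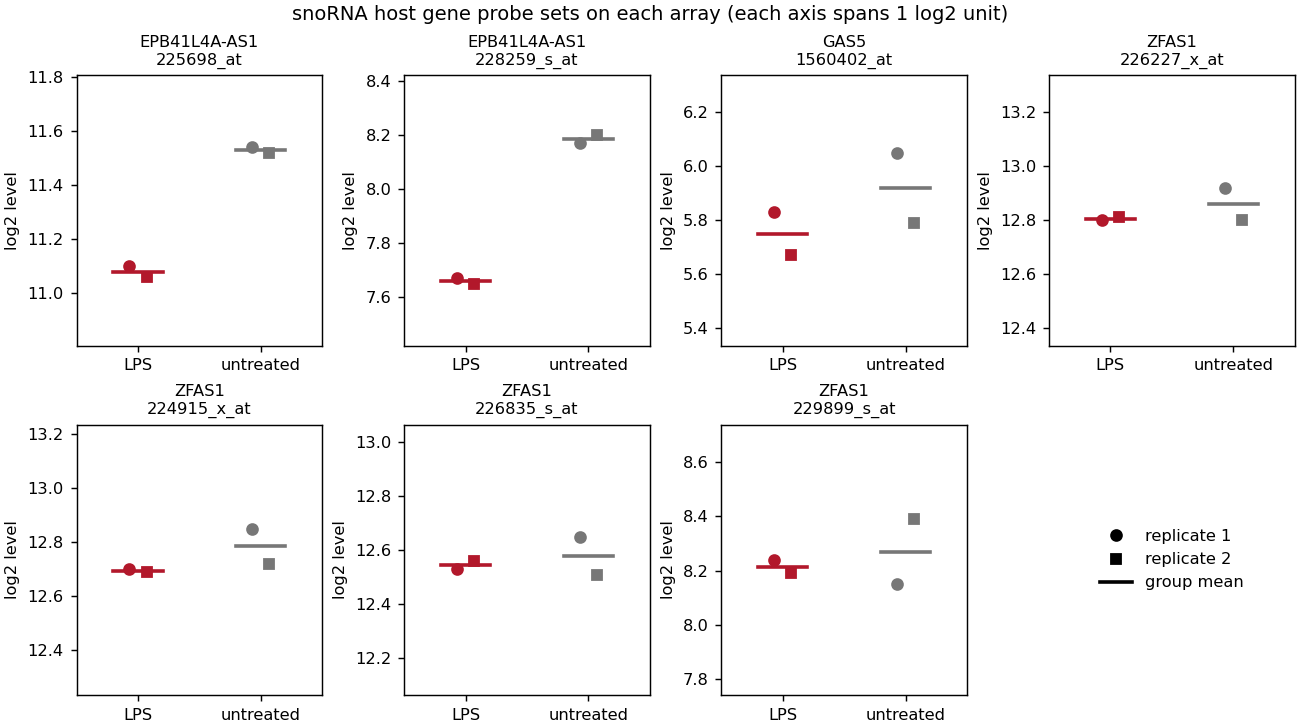
Log2 level of each of the 7 probe sets on each array, LPS left and untreated right, with replicate 1 as a circle, replicate 2 as a square and the group mean as a bar; every axis spans 1 log2 unit. The groups stand apart by 0.42 and 0.50 for EPB41L4A-AS1, and lie close together or overlap for ZFAS1 and GAS5.

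ZFAS1 showed little difference. It is known as a host of box C/D snoRNAs that lies beside the gene ZNFX1. On probe set 226227_x_at the level was 12.80 and 12.81 on the LPS arrays, against 12.92 and 12.80 on the untreated arrays. On 224915_x_at it was 12.70 and 12.69 with LPS, against 12.85 and 12.72 untreated. On 226835_s_at it was 12.53 and 12.56 with LPS, against 12.65 and 12.51 untreated. On the first 3 the LPS values were nearly equal to untreated replicate 2 and lay under untreated replicate 1. The groups were apart only on 224915_x_at, and there by 0.01.

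The fourth ZFAS1 probe set, 229899_s_at, gave 8.24 and 8.19 with LPS, against 8.15 and 8.39 untreated, with both LPS arrays between the untreated ones. The 4 differences were -0.05 (interval -0.17 to 0.06), -0.09 (-0.21 to 0.04), -0.03 (-0.16 to 0.09) and -0.06 (-0.28 to 0.17), with limma adjusted p-values of 0.555 to 0.863. The lowest bound corresponds to an LPS level of 82.1% of the untreated level, so a lowering of the size seen on both EPB41L4A-AS1 probe sets lay outside all 4 intervals. The sign of 226835_s_at turned with cyclic loess (0.0018) and that of 3 ZFAS1 probe sets turned when 1 untreated array was left out (0.00294, 0.03 and 0.06).

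The distance between both genes was also set out array by array. The mean of the EPB41L4A-AS1 probe sets minus the mean of the ZFAS1 probe sets was -2.19 and -2.21 on the LPS arrays, against -1.79 and -1.75 on the untreated arrays. Only the change of this distance can be read, since different probes have different brightness. It was -0.43 (exact permutation test over arrays, two-sided, p = 0.333, the smallest p that 2 arrays against 2 allow). Both genes were paired with their values known.

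GAS5, the growth-arrest-specific host whose spliced RNA can bind the glucocorticoid receptor in place of DNA, had its only probe set of its own, 1560402_at, under the level filter of 6.06. It read 5.83 and 5.67 with LPS, against 6.05 and 5.79 untreated, and the groups overlapped. The difference was -0.17 (interval -0.43 to 0.09, limma adjusted p = 0.639 when no filter was used). This probe set gives no firm value for GAS5.

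Counted over the members, 6 of 7 probe sets passed the level filter. In limma 0 of these 6 were past the adjusted threshold in either direction, against 0.00785% of all probe sets higher and 0.0% lower. Before adjustment, p was under 0.05 for 2 of 6 on the lower side, both of EPB41L4A-AS1, and for 0 on the higher side, against 8.02% lower and 3.69% higher over all probe sets. Without untreated replicate 2 the ZFAS1 differences became -0.15 (224915_x_at), -0.11 (226227_x_at), -0.10 (226835_s_at) and 0.06 (229899_s_at). Both LPS arrays lay under both untreated arrays on 3 of 6, against 24.2% of all probe sets, and above them on 0, against 19.1%. The median difference over the 6 was -0.07, against -0.00394 over all probe sets tested. Probe sets of the same gene are not independent.

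Bright probe sets in general tended to read lower with LPS. Over all probe sets tested in 10 bins of level, the median difference was 0.02 in the faintest bin and -0.03 in the brightest, which begins at 10.76. In that brightest bin both LPS arrays lay under both untreated arrays for 36.3% of probe sets, and the central 90% of differences ran from -0.21 to 0.14. The brighter EPB41L4A-AS1 probe set, at -0.45, lay below that range. The fainter one, at -0.53, lay below the range of its own bin (-0.26 to 0.18). The ZFAS1 probe sets lay within theirs.

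**Figure D2:**
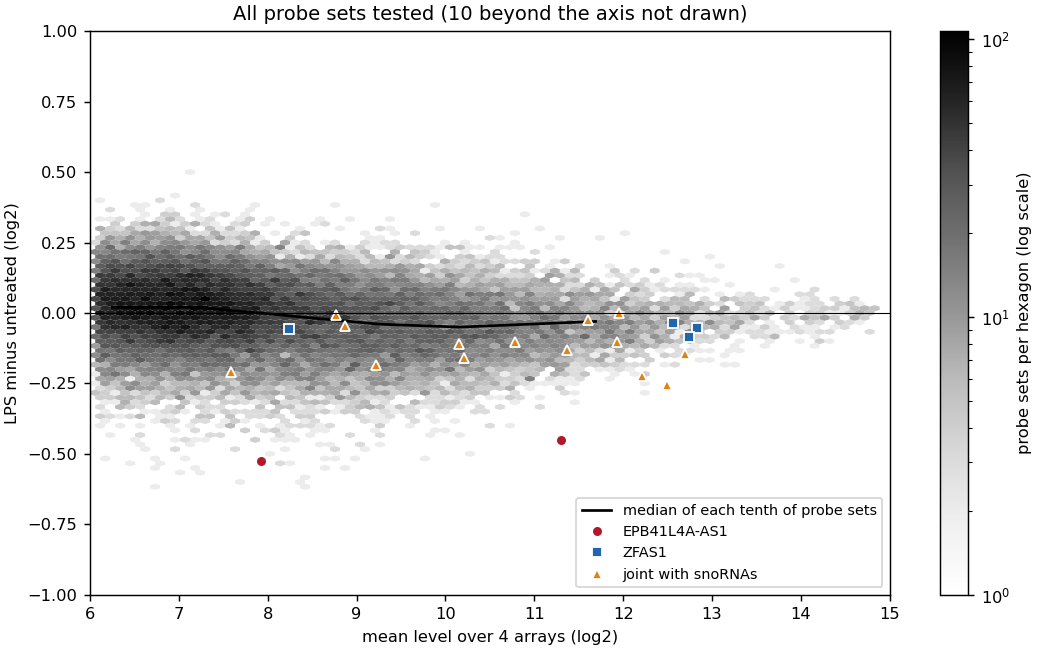
Difference, LPS minus untreated (log2), of every probe set tested against its mean level over the 4 arrays; grey hexagons count probe sets on a log scale, the line joins the medians of 10 equal bins, and 10 probe sets beyond the axis are not drawn. The EPB41L4A-AS1 circles, at -0.45 and -0.53, lie under the main body of probe sets, and the ZFAS1 squares lie inside it.

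The 14 joint probe sets were read in the same way. Their annotation lists a host with its snoRNAs, and what part of the signal, if any, comes from snoRNAs was not measured. Their differences ran from -0.26 to -0.00154 with a median of -0.12, all smaller in size than those of EPB41L4A-AS1. In limma 0 of 14 were past the adjusted threshold. Before adjustment, limma's p was under 0.05 for 6 on the lower side and 0 on the higher, against 8.02% and 3.69% of all probe sets. The 14 cover 8 genes, and probe sets of the same gene are not independent. Among the 6, probe sets 224741_x_at, 224841_x_at and 228238_at are all of GAS5. The 6 became 4 with quantile normalization or cyclic loess, 3 with no intensity trend, and 7 with median centring or the replicate number as a block. The lower share of all probe sets was then 6.8%, 7.1%, 7.45%, 8.94% and 10.2%, in that order. With 1 array left out in turn, 12 or 13 of the 14 were below 0, against 19708 to 20142 of all 38229 probe sets. The median of the 14 then ran from -0.16 to -0.12. Both LPS arrays lay under both untreated arrays on 11, against 24.2% of all probe sets and 36.3% in the brightest bin. All 14 differences were below 0 in the deposited scaling, against 19697 of all 38229 probe sets tested. The share below 0 among probe sets of like level was not counted. The 14 had mean levels of 7.59 to 12.69, and the median difference over all probe sets was -0.03 in the brightest bin. After quantile normalization or cyclic loess 11 of the 14 were below 0 and 3 above, with a median of -0.08 in each. Of all 38229 probe sets, 18263 and 18708 were then below 0.

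All 4 probe sets annotated to GAS5 with 8 snoRNAs lay lower with LPS, with no overlap of the groups, as did 24.2% of all probe sets and 36.3% in the brightest bin. On 224741_x_at the level was 12.41 and 12.32 with LPS, against 12.67 and 12.58 untreated. The difference was -0.26 (interval -0.38 to -0.13, limma adjusted p = 0.211). On 224841_x_at the level was 12.14 and 12.07 with LPS, against 12.38 and 12.28 untreated, a difference of -0.22 (interval -0.35 to -0.10, limma adjusted p = 0.256). Both are of the _x_at type, which can bind other transcripts. The other two, 228238_at and 227517_s_at, differed by -0.16 (interval -0.31 to -0.0078) and -0.10 (interval -0.25 to 0.04).

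Of the SNHG probe sets with snoRNAs, the one listing SNHG3 with SNORA73A differed by -0.21 (interval -0.40 to -0.02; 7.43 and 7.54 with LPS, against 7.70 and 7.69 untreated). SNORA73A is an H/ACA-type snoRNA that acts in processing of the ribosomal RNA precursor. The one listing SNHG6 with SNORD87 differed by -0.15 (interval -0.25 to -0.05) and the one listing SNHG5 with SNORD50A and SNORD50B by -0.13 (interval -0.26 to -0.00659). Limma adjusted p-values of these 3 were 0.300 to 0.410. The 3 probe sets listing SNHG12 differed by -0.19, -0.11 and -0.04, and the one listing SNHG8 with SNORA24 by -0.10, all with intervals that reach above 0.

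Differences near 0 were found where SNHG1 and SNHG7 are listed. SNHG1 encloses a run of C/D snoRNAs, and its joint probe set read 11.96 and 11.93 with LPS, against 12.00 and 11.90 untreated, a difference of -0.00154 (interval -0.13 to 0.12). The 2 joint probe sets of SNHG7 differed by -0.03 and -0.00664. These are the 3 whose sign turned with quantile normalization or cyclic loess.

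**Figure D3:**
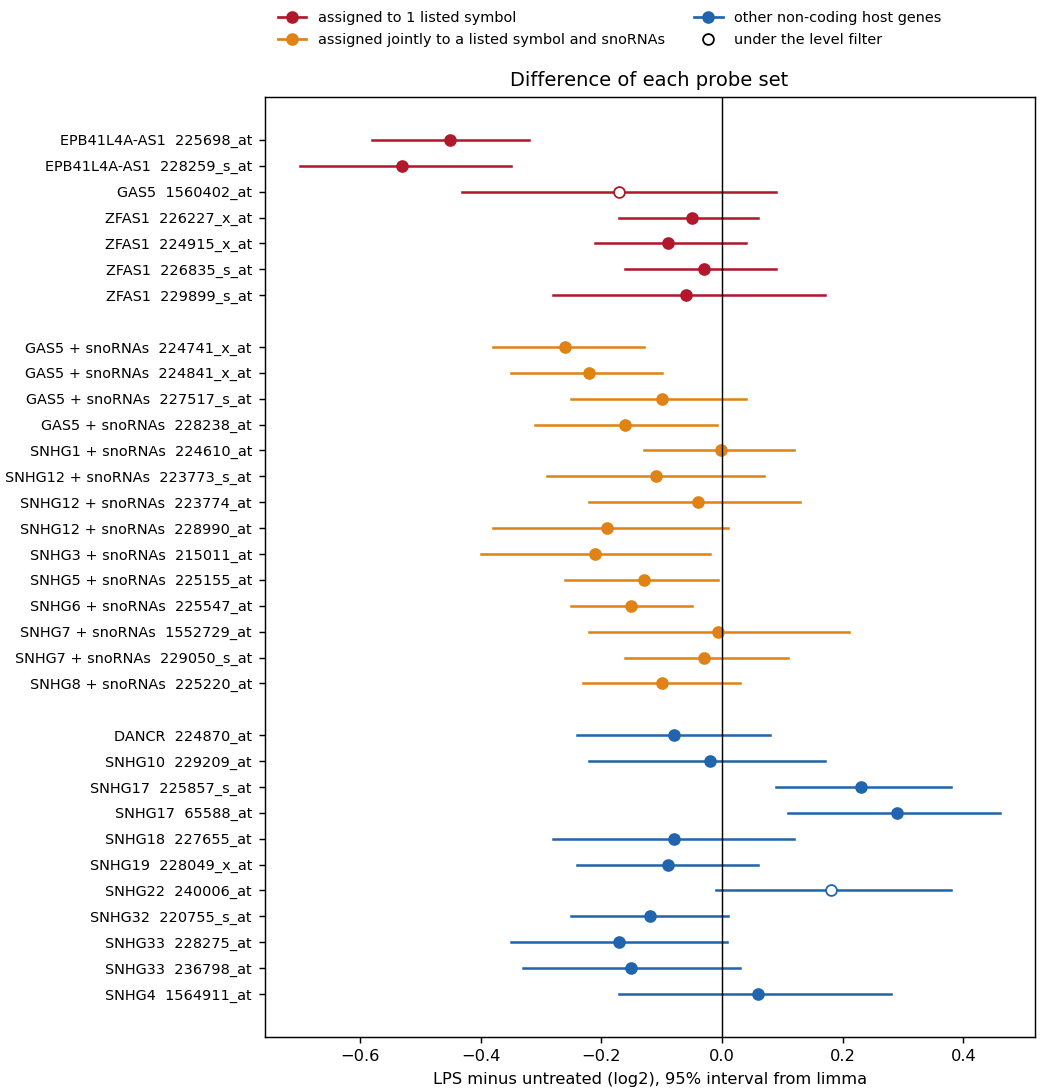
Difference, LPS minus untreated (log2), with its 95% limma interval, for the 7 probe sets of single listed symbols (red), the 14 joint with snoRNAs (orange) and those of other non-coding host genes (blue); open circles were under the level filter. EPB41L4A-AS1 lies farthest left, at -0.45 and -0.53, and SNHG17 farthest right, at 0.23 and 0.29.

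Other non-coding host genes gave values on both sides of 0. Of 21 listed, 9 had a probe set of their own and 8 were tested, with a median difference of -0.08 (-0.15 to 0.23). In limma 0 passed the adjusted threshold, and by unadjusted p (0.05) 1 was higher and 0 lower. SNHG17, a host of the SNORA71 family of H/ACA snoRNAs, was the one higher. Its probe set 225857_s_at read 11.52 and 11.59 with LPS, against 11.27 and 11.38 untreated, a difference of 0.23 (interval 0.09 to 0.38, limma adjusted p = 0.283). A second probe set, 65588_at, differed by 0.29 (interval 0.11 to 0.46), and the annotation gives the same source sequence for both. SNHG32, which carries box C/D snoRNAs, differed by -0.12 and SNHG33 by -0.15 (-0.17 on its other probe set). DANCR differed by -0.08 (interval -0.24 to 0.08), by 0.02 without untreated replicate 1 and by -0.17 without untreated replicate 2.

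The mean of EPB41L4A-AS1 minus that of SNHG17 was -1.84 and -1.89 on the LPS arrays, against -1.05 and -1.18 on the untreated arrays. The change of this distance was -0.75 (exact permutation test over arrays, two-sided, p = 0.333, the smallest possible), with the values of the hosts on opposite sides of 0. This pair was chosen after both values were seen.

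Genes that work with snoRNAs or act on their hosts are given from lists. Of 39 protein-coding snoRNA hosts, 18 had a probe set of their own and 17 were tested. Their median difference was -0.04, with 0 past the adjusted limma threshold and by unadjusted p 0 higher and 2 lower. RPL3 of the large ribosomal subunit differed by -0.12, RPL12 by -0.08 (-0.14 on its other probe set) and RPL30 by -0.06. The nucleolar protein NCL differed by 0.03 and TAF1D, part of the selectivity factor of RNA polymerase I, by -0.07. EIF4A2 had only a faint probe set of its own, under the filter, and RACK1 had none.

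Transcripts of proteins that bind or assemble snoRNAs differed little. All 18 of 20 with a probe set were tested, with a median of -0.02, 0 past the adjusted limma threshold, and by unadjusted p 1 higher and 1 lower. NOP10, of the H/ACA core, differed by 0.11 and NOP58, of the C/D core, by -0.11. The C/D methyltransferase FBL read 13.33 and 13.34 with LPS, against 13.32 and 13.35 untreated. DBR1, which opens the intron lariats from which snoRNAs are trimmed, differed by -0.17, and by 0.05 on its other probe set. The -0.17 became -0.08 without untreated replicate 1 and -0.25 without untreated replicate 2. DKC1 had no probe set of its own.

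Among nonsense-mediated decay factors, 12 of 18 were tested, with a median of 0.04, 0 past the adjusted limma threshold, and by unadjusted p 2 higher and 2 lower. The helicase UPF1 differed by 0.27 on 211168_s_at (10.33 and 10.59 with LPS, against 10.15 and 10.23 untreated) and by 0.07 on its other probe set. Without LPS replicate 1 the 0.27 became 0.40, and without LPS replicate 2 it became 0.14. Its partner UPF2 differed by -0.29 (9.59 and 9.57 with LPS, against 9.90 and 9.83 untreated). The exonuclease XRN1 differed by -0.26, with 9.25 and 9.33 with LPS, against 9.52 and 9.57 untreated. Its other probe sets differed by -0.27 and, under the level filter, by -0.19 and -0.00216. UPF1 and UPF2 thus lay on opposite sides of 0. SMG1 had no probe set of its own.

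The glucocorticoid receptor and its targets were listed because GAS5 can bind that receptor. Of 10, 9 were tested, with a median of -0.02, 0 past the adjusted limma threshold, and by unadjusted p 0 higher and 1 lower. NR3C1, the receptor gene, differed by -0.18 on its brightest probe set. Its other probe sets differed by -0.23 to 0.10 and, under the level filter, by 0.11. Its target FKBP5 differed by 0.11, by 0.02 without untreated replicate 2 and 0.19 without untreated replicate 1. The other FKBP5 probe sets differed by 0.03 and, under the level filter, by 0.01. KLF9, another target, differed by -0.16. Its other probe sets differed by -0.05 to 0.03 and, under the level filter, by 0.11.

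Probe sets named for a snoRNA or small Cajal body RNA alone covered 16 symbols, of which 13 were tested. Mature snoRNAs have no poly(A) tail, and standard Affymetrix labelling starts from such tails, so these probe sets need not report mature snoRNA. Their median difference was 0.03, with 0 past the adjusted limma threshold, and by unadjusted p 0 higher and 2 lower. SNORA21 read 6.79 and 6.71 with LPS, against 7.12 and 7.51 untreated. Its difference was -0.56, which became -0.76 without untreated replicate 1 and -0.37 without untreated replicate 2. SCARNA15 differed by -0.26, by -0.35 without untreated replicate 1 and by -0.17 without untreated replicate 2. SNORA72 differed by -0.14. SNORA13, the snoRNA of EPB41L4A-AS1, had no probe set of its own.

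The arrays as a whole were alike, with medians of at most 7.03 and pairwise correlations across probe sets of 0.996 to 0.998. In limma 3 of 38229 probe sets passed, 1 each of the chemokine genes CCL20, CXCL1 and CXCL8, which were higher by 2.93, 1.99 and 1.73. The other CXCL8 probe set was higher by 1.17 and did not pass (limma adjusted p = 0.123). Of 9 epithelial markers 8 passed the level filter, with mean levels of 8.80 to 14.62. EPCAM read 13.85 and 13.81 with LPS, against 13.76 and 13.91 untreated, and TFF3 8.79 and 8.69 with LPS, against 8.84 and 8.87 untreated. KRT20 lay under the filter. Of 4 leukocyte markers, PTPRC and CD14 lay under the filter, while CD3E read 7.96 and 7.85 with LPS, against 7.93 and 7.88 untreated, and ITGAM 6.86 and 6.68 with LPS, against 6.68 and 6.74 untreated. Of 8 fibroblast and endothelial markers 7 passed the filter, with mean levels of 6.24 (COL3A1) to 9.17 (COL1A1), and CDH5 did not. Absence of those cell types thus cannot be read from these lists. Of the markers tested in these 3 lists, 0 were higher and 0 lower by limma's unadjusted p. Differences are relative to the other probe sets, since arrays of equal distribution would hide a shift common to all. Poly-A spike-ins, bacterial transcripts added before labelling, moved with the groups, averaging 7.98 and 7.92 on the LPS arrays, against 8.60 and 8.25 on the untreated arrays, and all 24 were lower on both LPS arrays. The 3′ minus 5′ difference of the beta-actin controls, a sign of RNA length, was 0.39 and 0.63 on the LPS arrays, against 0.64 and 0.86 on the untreated arrays. The same difference of the GAPDH controls did not follow the groups, at 0.000997 and 0.11 on the LPS arrays, against 0.02 and 0.07 on the untreated arrays. The part of the spike-ins and of beta-actin in the EPB41L4A-AS1 difference was not tested.

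The EPB41L4A-AS1 difference held its size under the settings tried. It was -0.47 to -0.41 for 225698_at and -0.54 to -0.51 for 228259_s_at over all of them, and the limma adjusted p lay between 0.0619 and 0.91 for the first and 0.0718 and 0.91 for the second. The lowest adjusted p of each came with median centring and the highest without LPS replicate 2.

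**Figure D4:**
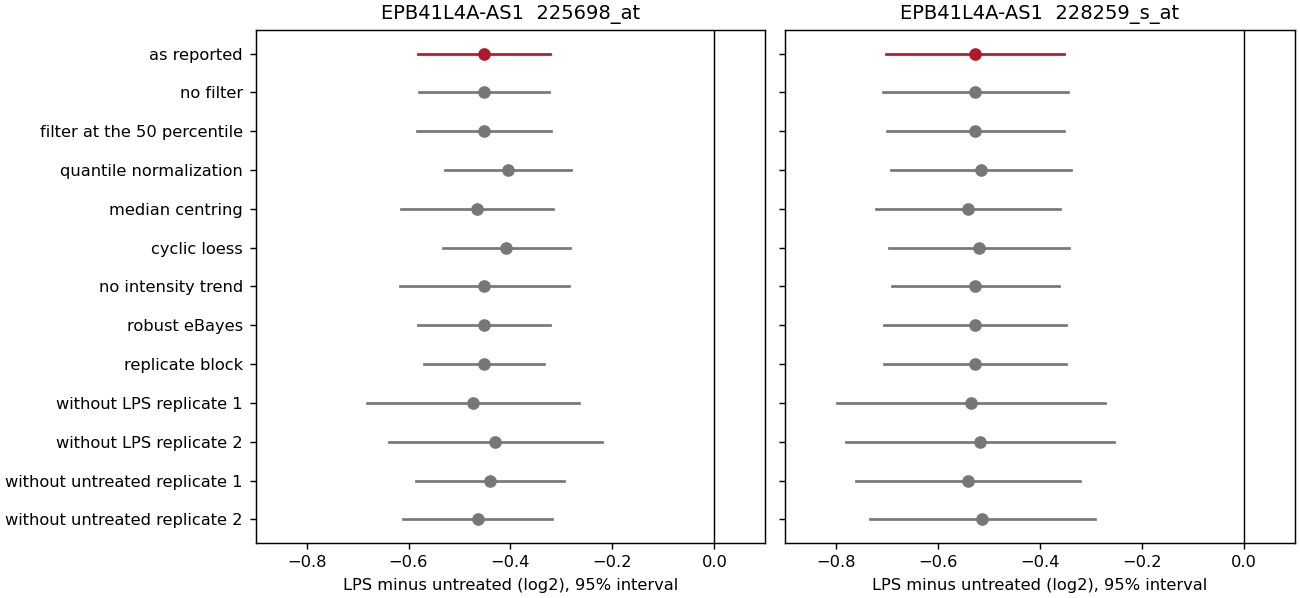
Difference, LPS minus untreated (log2), with its 95% limma interval, for both EPB41L4A-AS1 probe sets as reported (red) and under each other setting (grey). Every interval lies below 0, and every adjusted p stays above 0.05, the lowest being 0.0619.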

How the data were processed

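MKN45 cells were profiled on 4 arrays, 2 after LPS and 2 untreated, grouped by their labels. The deposited table holds 54675 probe sets with log2 levels (the scale was read from its range). The submitters' processing notes name MAS5 and RMA, and which of them made the values is not given in the sources used here. Equal-ranked values lay within 0.0977 of each other over the arrays, and a shift of all transcripts would thus not show. Having only 4 arrays limits the precision.

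The 62 control probe sets and those whose mean fell below the 30 percentile (6.06) were removed, leaving 38229. limma 3.58.1 under R 4.3.3 compared the groups (lmFit, eBayes with an intensity trend, no replicate block), two-sided, with Benjamini-Hochberg adjustment over all probe sets tested, a threshold of 0.05 and 7.06 total degrees of freedom. The procedure was tested on simulated data.

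Names came from the platform annotation, whose 41037 matches to RefSeq (of 41091 single-symbol probe sets) changed 0 symbols. In other lists a gene was read by its brightest single-symbol probe set, and the 3 smallest p-values of a list were named, with DANCR, TAF1D, NCL, EIF4A2, RACK1, FBL, DKC1, UPF1 and SMG1 always named. Members and lists were chosen with earlier results of these data known. Of the 10 genes, 9 matched the RefSeq promoter table (GRCh38.p14), all but SNHG6. Alternatives were no filter, a 50 percentile filter, cyclic loess, quantile normalization, median centring, robust eBayes, eBayes with no trend, the replicate number as a block, and leaving out each array.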

Additional observations from a re-analysis of the deposited data

How the results depend on the processing

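No member and no joint probe set passed the adjusted threshold under any setting tried. Over all probe sets the count of 3 became 5 with a filter at the 50 percentile or robust eBayes, 8 with quantile normalization or cyclic loess, 17 with median centring (6 higher, 11 lower), and 2 to 11 with 1 array left out, the 11 without untreated replicate 1 (5 higher, 6 lower). The cause was not tested. The members' median of -0.07 was -0.13 to -0.07 with 1 array left out, with -0.13 without untreated replicate 2, and it was -0.04 with cyclic loess, -0.05 with quantile normalization, -0.08 with median centring and -0.09 with no filter. Leaving out untreated replicate 1 or 2 also moved SNHG32 (-0.12) to -0.07 and -0.17, and RPL12 (-0.08) to -0.03 and -0.13. It moved SNORA72 (-0.14) to -0.09 and -0.19 and, for SNHG12, 228990_at (-0.19) to -0.26 and -0.11. The SNHG12 probe set 223773_s_at (-0.11) ran from -0.17 to -0.05 over all 4 arrays left out in turn. A group left with 1 array is assumed to vary like the other group. Signs turned for differences near 0. Under quantile normalization and cyclic loess the joint probe set of SNHG1 became 0.04 and 0.04, those of SNHG7 0.03 and 0.03 (1552729_at) and 0.02 and 0.02 (229050_s_at), and FBL 0.02 and 0.03, while ZFAS1 226835_s_at became 0.0018 under cyclic loess. With 1 array left out, ranges crossing 0 were -0.11 to 0.00294, -0.10 to 0.03 and -0.17 to 0.06 for ZFAS1 226227_x_at, 226835_s_at and 229899_s_at, -0.05 to 0.04 for the joint probe set of SNHG1, -0.11 to 0.09 and -0.07 to 0.02 for those of SNHG7, -0.17 to 0.02 for DANCR, -0.03 to 0.10 for NCL, -0.14 to 0.00789 for TAF1D and -0.02 to 0.01 for FBL. CXCL8 missed the threshold without LPS replicate 1 and without LPS replicate 2 (limma adjusted p = 0.0583 and 0.0546). Deviations of same-numbered arrays correlated at 0.214 across probe sets, and 2 pairs do not show that the numbers pair the arrays. With the replicate block the count was 3 over all probe sets and 0 among the members, whose smallest limma adjusted p was 0.0887.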

Other observations

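Genes on the opposite strand that overlap a listed host or lie within 2 kb of it were read where they had a probe set of their own. They were chosen by position after the values of the hosts were seen. EPB41L4A, the protein-coding gene on the other strand at EPB41L4A-AS1, read 6.65 and 6.66 with LPS, against 6.42 and 6.66 untreated, a difference of 0.11 (interval -0.12 to 0.35, limma adjusted p = 0.688). The strand partner of GAS5, the zinc finger gene ZBTB37, differed by 0.12 (interval -0.11 to 0.36). SLC3A2, a subunit of amino acid transporters beside SNHG1, read 10.11 and 10.17 with LPS, against 10.00 and 10.00 untreated, a difference of 0.14 (interval -0.02 to 0.30, limma adjusted p = 0.469). DIPK1B beside SNHG7 differed by -0.11, PRSS12 beside SNHG8 by 0.02 and TRNAU1AP beside SNHG12 by -0.02.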
